A study of Mus musculus with 48 samples.

Results

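The zinc handling genes Mt1, Mt2, Mt3, Mtf1, Slc30a1 and Slc39a10 were followed by RNA-Seq through 16 conditions of murine striatal progenitor cells. They were taken by name from the expression table and are 6 of its 27281 genes. They were selected on RNA values of the same samples, among them the difference of Mt2 between Group A and Group B compounds. Their levels and differences are therefore given as a description, with no test. Of the 6 genes, 5 reached the minimum mean of 1 on the log2 scale that 13409 genes with a symbol reached, and Mt3 did not.

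All cells were STHdh lines, conditionally immortalized progenitors from the mouse striatum, and the labels give the strain as C57BL/6. STHdhQ7 cells were labelled wild type and STHdhQ111 cells mutant. By the study's methods, STHdhQ111 cells carry a homozygous knock-in of mutant huntingtin. Each genotype was represented by 1 cell line, so genotype and line cannot be told apart. Every condition had 3 samples, which makes 48, and every treatment lasted 24 hours without serum. STHdhQ7 cells (Q7SST) and STHdhQ111 cells (Q111SST) received vehicle, which was DMSO by the study's methods. STHdhQ111 cells also received 14 compounds. Diacylglycerol kinase inhibitor II (DKI), meclizine, loxapine, cyproheptadine and selisistat were given at 10 µM and pizotifen at 5 µM. Cysteamine was given at 250 µM, sodium butyrate at 1 mM and 4-deoxypyridoxine at 4 mM. Fingolimod phosphate was given at 250 nM, trichostatin A at 10 nM, nortriptyline at 1 nM, and nicotinamide and haloperidol at 0.5 nM. In the study's own grouping, Group A is made up of loxapine, pizotifen and cyproheptadine and Group B of meclizine and DKI. Doses differed among the compounds, pizotifen within Group A included, so the order of condition means given here is a description and not a comparison at matched dose. The labels do not say that samples of a condition came from separate cultures, so p-values measure only the spread between these samples.

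The deposited values are normalized log2 abundances, and a difference of 1 is a 2-fold difference. The depth per sample is unknown, since no counts were used here. Replicates correlated at 0.9964 to 0.9994 across genes. The progenitor genes Nes (5.51), Sox2 (5.11) and Vim (15.4) were above the minimum, as 11 of 18 listed progenitor and striatal genes were. Drd1 lay at -2.18, near the lowest value of the table (-2.34). Vim is also made by fibroblasts. Among markers of other cell types, 4 of 6 fibroblast and mural cell genes were above the minimum (Col1a1 at 14.5), 4 of 7 of astrocytes (Slc1a3 at 7.11, while Gfap lay at -0.95), 3 of 6 of the oligodendrocyte lineage (Pdgfra at 8.94), 3 of 4 of endothelial cells (Pecam1 at 8.35) and 2 of 6 of microglia (Tmem119 at 7.63, while Aif1 lay at -2.18). Summed and put on the log2 scale, the microglial list was at 8.71 in STHdhQ7 and 7.50 in STHdhQ111 vehicle cells, the oligodendrocyte list at 7.83 and 9.09, the astrocyte list at 6.96 and 7.58, the endothelial list at 8.16 and 8.30 and the fibroblast list at 15.1 and 15.3. In the condition means of Group A and Group B, the microglial list lay at 7.57 to 8.07 and 7.01 to 7.08, the oligodendrocyte list at 9.002 to 9.21 and 8.89 to 9.08, the astrocyte list at 7.06 to 7.36 and 7.07 to 7.31, the endothelial list at 8.19 to 8.90 and 8.23 to 8.70, and the fibroblast list at 14.7 to 15.2 and 14.5 to 14.8. The part of these shifts in the results was not tested. Each sample was a culture of 1 cell line, and these levels do not show that other cell types were present. In such bulk samples, fewer cells making a transcript and less RNA per cell cannot be told apart.

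Metallothioneins are small cysteine-rich proteins that bind zinc, copper and cadmium and buffer free zinc in the cytosol. Mt1 and Mt2 encode the forms made in most tissues, and Mt3 encodes a form of the brain, described mainly in neurons that hold zinc in synaptic vesicles. The transcription factor MTF-1, encoded by Mtf1, senses zinc and binds metal response elements, short motifs that lie in several copies before the metallothionein genes. Among its targets is Slc30a1, which encodes ZnT1, the exporter that carries zinc out through the plasma membrane. Slc39a10 encodes ZIP10, an importer that brings zinc into the cytosol and whose gene MTF-1 is known to hold down when zinc is plentiful.

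Mt2, Mt1 and Mt3 lie side by side on the plus strand of chromosome 8 in GRCm38, Mt3 at 94152607 to 94154146, Mt2 at 94172664 to 94173568 and Mt1 at 94179082 to 94180327. The gap between Mt2 and Mt1 is 5513 bases. The antisense gene Gm45774 overlaps Mt2, and the strand setting of the counting is not given in the sources used here, so reads of the 2 genes cannot be told apart with certainty. Slc30a1 lies on the plus strand of chromosome 1 at 191906767 to 191913247, where 1700034H15Rik overlaps it on the other strand. Slc39a10 lies on the minus strand of chromosome 1 at 46807544 to 46892852 and shares its span with Gm28151 and Gm37393. Mtf1 lies on the plus strand of chromosome 4 at 124802104 to 124849800. It is overlapped by n-R5s192 on the same strand and by 1110065P20Rik on the other.

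The 250 bases before the RefSeq start (GRCm38.p6) were searched on both strands for the core of the metal response element, TGCACNC or TGCGCNC. They are shown for the 3 genes with a match, Mt2 at chr8:94172368-94172617, Mt1 at chr8:94178839-94179088 and Slc30a1 at chr1:191906531-191906780, all plus strand, 5′ to 3′, with matches in capitals. A match on the minus strand reads as its reverse complement.
Mt2 promoter: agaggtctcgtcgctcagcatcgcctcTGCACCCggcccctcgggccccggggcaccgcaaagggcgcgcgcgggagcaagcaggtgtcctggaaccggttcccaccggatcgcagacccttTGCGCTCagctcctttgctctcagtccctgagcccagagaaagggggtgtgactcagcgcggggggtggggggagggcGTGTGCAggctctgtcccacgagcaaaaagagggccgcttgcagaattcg
Mt1 promoter: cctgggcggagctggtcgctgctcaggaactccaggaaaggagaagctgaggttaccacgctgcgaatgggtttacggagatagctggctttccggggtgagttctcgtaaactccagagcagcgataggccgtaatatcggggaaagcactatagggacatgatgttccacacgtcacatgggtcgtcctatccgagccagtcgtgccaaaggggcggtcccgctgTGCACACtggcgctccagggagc
Slc30a1 promoter: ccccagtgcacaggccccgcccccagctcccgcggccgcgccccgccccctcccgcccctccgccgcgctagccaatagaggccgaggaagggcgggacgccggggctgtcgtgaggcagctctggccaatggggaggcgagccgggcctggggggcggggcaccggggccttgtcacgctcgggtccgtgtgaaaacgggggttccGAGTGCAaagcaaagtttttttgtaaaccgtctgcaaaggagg
Mt2 had 3 matches, beginning 223, 128 and 50 bases before the start, and 1.26% of 32851 promoters had at least 3. Mt1 and Slc30a1 had 1 match each, and 21.4% of promoters had at least 1. No match lay in these windows of Mt3, Mtf1 and Slc39a10. Annotated starts of Mt1 differ: 2 GENCODE transcripts begin further downstream, at 94179211 and 94179241. The first exon of the transcript that starts first therefore holds bases that precede the other starts. Its 229 bases before the start codon held 4 more matches, against at least 4 in the same length of 0.155% of 58527 coding transcripts. The 4 sites are shown with 8 bases to each side, core in capitals, in order along chromosome 8 from base 94179083 to base 94179201.
Mt1 site a: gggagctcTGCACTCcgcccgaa
Mt1 site b: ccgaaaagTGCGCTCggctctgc
Mt1 site c: cgcctgctGGGTGCAaacccttt
Mt1 site d: aaacccttTGCGCCCggactcgt
The 184 such bases of Mt2 held 3 matches, and at least 3 were found in that length of 0.515% of transcripts. Annotated starts differ for Mt2, Slc30a1 and Slc39a10 too, and a Mt2 transcript begins downstream of these bases, at 94172860. Slc30a1 had 1 match in 240 such bases (21.7% of transcripts) and Slc39a10 had 2 in 576 (12.4%). These letters describe the sequence and do not show that any factor was bound.

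Mt1 and Mt2 were lower in STHdhQ7 than in STHdhQ111 vehicle cells, and Slc39a10 was higher. In STHdhQ7 cells the 3 samples gave Mt2 values of 9.97, 10.66 and 10.14. In STHdhQ111 vehicle cells they gave 11.00, 11.39 and 11.60. Each STHdhQ7 sample thus lay below each STHdhQ111 sample, and the lines differed by 1.07 log2 units (SE 0.16), which is 2.10-fold lower in STHdhQ7. For Mt1 the STHdhQ7 samples read 10.51, 10.92 and 10.67 and the STHdhQ111 vehicle samples 11.45, 11.75 and 11.95. The Mt1 difference (Q7 minus Q111) was -1.01 (SE 0.12), or 2.02-fold lower, again without overlap. Of the 5 genes above the minimum, groups did not overlap for 3, and they did not overlap for 58.2% of all genes tested.

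With the Group A compounds, Mt2 and Mt1 were lower than with vehicle on average. Mt2 read 10.98, 10.60 and 10.65 with cyproheptadine, 11.03, 10.21 and 10.40 with loxapine, and 10.97, 10.76 and 10.56 with pizotifen. All 9 values lay below the vehicle mean of 11.33 ± 0.30 (SD, n = 3), and the difference was -0.64 (SE 0.13), or 1.56-fold lower. Only loxapine replicate 1 reached into the range of the vehicle samples. For Mt1 the values were 11.61, 11.35 and 11.35 with cyproheptadine, 11.56, 11.14 and 11.09 with loxapine, and 11.70, 11.42 and 11.37 with pizotifen. The Mt1 difference from vehicle was -0.32 (SE 0.096), or 1.25-fold lower, and -0.19 without vehicle replicate 3. All 9 values lay below the vehicle mean of 11.72 ± 0.25 (SD, n = 3) while the ranges overlapped. Between Group A and vehicle, 1 of the 5 genes (Slc39a10) had ranges that did not overlap, against 22.3% of all genes tested.

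With the Group B compounds, both metallothionein genes were near or above vehicle. Mt2 read 11.92, 11.69 and 11.81 with DKI and 11.42, 11.15 and 11.54 with meclizine. The DKI samples all lay above the vehicle samples (difference 0.48, SE 0.16), and the meclizine samples lay within their range (0.04, SE 0.16). The DKI difference was 0.31 without vehicle replicate 1, and 0.28 where the DKI and vehicle samples were fitted alone. Mt1 read 12.12, 11.88 and 12.02 with DKI and 11.92, 11.66 and 11.92 with meclizine. Over both compounds the difference from vehicle was 0.26 (SE 0.14) for Mt2 and 0.21 (SE 0.10) for Mt1, and it was 0.088 and 0.068 without vehicle replicate 1, the lowest vehicle sample for both genes. Ranges overlapped between Group B and vehicle for all 5 genes, whereas 32.8% of genes tested had no overlap.

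Set against each other, Group B lay above Group A in Mt2 by 0.90 (SE 0.10), or 1.87-fold, and the lowest of 6 Group B samples lay above the highest of 9 Group A samples. This is the pattern that led to the choice of Mt2. The Mt1 difference (Group B minus Group A) was 0.52 (SE 0.076), and the ranges overlapped. Mt2 was the 1 gene of 5 without overlap in this comparison, and 10.6% of all genes tested had none.

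Sodium butyrate gave the highest mean of both metallothionein genes among the 16 conditions. Mt2 read 11.90, 12.18 and 11.93 and Mt1 12.13, 12.40 and 12.21 with sodium butyrate, an inhibitor of histone deacetylases. All these samples lay above the vehicle samples, by 0.67 (SE 0.16) for Mt2 and 0.53 (SE 0.12) for Mt1. Slc39a10 lay below vehicle there, so 3 of 5 genes had no overlap, against 48.8% of genes tested. Trichostatin A, another inhibitor of histone deacetylases, gave 11.64, 11.37 and 11.31 for Mt2 and 12.12, 11.89 and 11.90 for Mt1. Those samples overlapped vehicle, with differences of 0.11 (SE 0.16) and 0.25 (SE 0.12), at a dose that does not match that of sodium butyrate.

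Cysteamine, an aminothiol, gave Mt2 values of 11.70, 11.78 and 11.75 and Mt1 values of 12.06, 12.13 and 12.13. The samples lay close together and all above vehicle, by 0.41 (SE 0.16) and 0.39 (SE 0.12), and 2 of 5 genes had no overlap, against 29.3% of genes tested. Without vehicle replicate 1 the cysteamine differences were 0.24 for Mt2 and 0.25 for Mt1. Mt2 read 11.60, 11.82 and 11.47 with 4-deoxypyridoxine and 11.53, 11.75 and 11.59 with nicotinamide, and both overlapped vehicle. Mt2 means with nortriptyline, fingolimod phosphate, haloperidol and selisistat lay between 11.2 and 11.5, within the range of the vehicle samples.

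**Figure D1:**
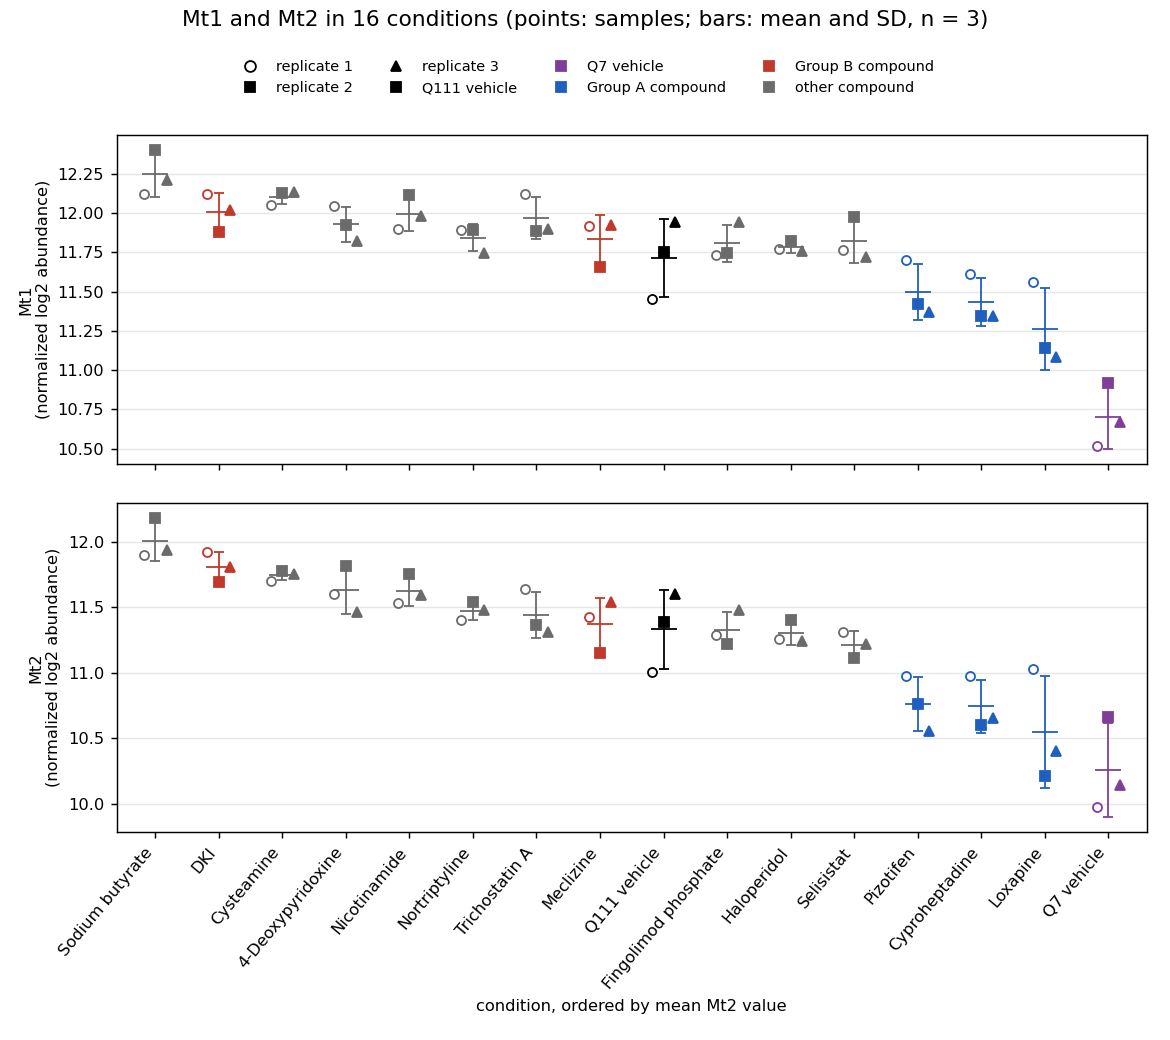
Normalized log2 abundance of Mt1 (upper panel) and Mt2 (lower panel) in 16 conditions on the x axis, ordered by the Mt2 mean. Points are samples, with shape for the replicate number and colour for the group, and bars are means and SD (n = 3). The STHdhQ7 vehicle samples and the Group A samples lie to the right, and the STHdhQ111 vehicle mean of Mt2 is 11.33.

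Neighbours in the order of means hardly separated. Of 15 neighbouring pairs of conditions, 1 had no overlap for Mt2 (selisistat above pizotifen) and 1 for Mt1 (loxapine above STHdhQ7 vehicle). The condition means of Mt2 spanned 1.75 log2 units over all conditions and 1.45 among the 15 conditions of STHdhQ111 cells. Those of Mt1 spanned 1.55 and 0.98.

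Slc39a10, the gene of the importer ZIP10, was highest where Mt2 was lowest, in STHdhQ7 vehicle cells and with the 3 Group A compounds. The orders were not inverted throughout, since DKI ranked 2 from the highest for Mt2 and 6 for Slc39a10, and selisistat 12 and 15. STHdhQ7 vehicle samples read 9.45, 9.35 and 9.71 and STHdhQ111 vehicle samples 8.20, 8.03 and 7.75. The difference was 1.51 (SE 0.18), or 2.86-fold, and no other condition of the 16 reached the STHdhQ7 samples. Slc39a10 read 8.22, 8.85 and 8.76 with cyproheptadine, 8.20, 9.19 and 9.04 with loxapine, and 8.22, 8.78 and 8.90 with pizotifen. Each of the 9 Group A samples lay above each vehicle sample, with a difference of 0.69 (SE 0.15), or 1.62-fold. The margin was small for replicate 1 of each compound, since the highest vehicle sample was 8.20 too.

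With Group B the Slc39a10 values were 8.21, 8.15 and 8.06 for DKI and 8.14, 8.42 and 8.17 for meclizine. They overlapped the vehicle samples (difference 0.20, SE 0.15), and the difference was 0.063 without vehicle replicate 3 and 0.31 without vehicle replicate 1. Group B lay below Group A by 0.50 log2 units (SE 0.11), with overlapping ranges. Sodium butyrate gave 7.59, 7.60 and 7.61, all below vehicle (difference -0.39, SE 0.18). Selisistat gave 7.95, 7.36 and 7.80, the widest spread outside Group A, and its samples overlapped vehicle. The condition means of Slc39a10 spanned 1.90 log2 units, and 1.21 among STHdhQ111 conditions.

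Slc30a1, the gene of the exporter ZnT1, varied less between conditions. STHdhQ111 vehicle samples read 6.73, 6.89 and 6.85 and STHdhQ7 vehicle samples 7.01, 7.34 and 6.69, and they overlapped (difference 0.19, SE 0.15). That difference was 0.018 without STHdhQ7 replicate 2 and 0.36 without STHdhQ7 replicate 3. The lowest mean was that of loxapine, with values of 6.73, 5.78 and 6.21 (difference -0.58, SE 0.15). This SE rests on the spread shared by all conditions, while the loxapine samples themselves had an SD of 0.47 and the vehicle samples 0.079. Loxapine replicates 2 and 3 were the lowest samples of all, and replicate 1 lay barely below the lowest vehicle sample (-0.0074 log2 units). Without loxapine replicate 2 that difference was -0.34. DKI gave 7.23, 6.93 and 7.08, all above vehicle (difference 0.26, SE 0.15). With meclizine the values were 6.52, 6.77 and 6.72, with cyproheptadine 7.13, 6.69 and 6.70, and with pizotifen 6.90, 6.67 and 6.39, and these overlapped vehicle. Group A and vehicle differed by -0.24 (SE 0.12), and Group B and Group A by 0.30 (SE 0.095), with overlap in both. Nicotinamide (6.62, 6.66 and 6.44) and 4-deoxypyridoxine (6.69, 6.72 and 6.69) lay below the vehicle samples by 0.25 and 0.12, both with SE 0.15. For single compounds, 2 of 5 genes had no overlap with vehicle for cyproheptadine (45.9% of genes tested), loxapine (41.7%), pizotifen (36.1%) and DKI (51.5%). For nicotinamide and 4-deoxypyridoxine it was 1 of 5, with 33% and 36.5% of genes tested. For meclizine, trichostatin A, nortriptyline, fingolimod phosphate, selisistat and haloperidol it was 0 of 5, with 40.5%, 31%, 26.4%, 20.4%, 15% and 8.92% of genes tested.

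Mtf1, the gene of the zinc sensor itself, hardly varied. All 48 samples lay between 7.95 and 8.45, and condition means spanned 0.28 log2 units. Vehicle samples of STHdhQ111 cells read 8.35, 8.15 and 8.28 and those of STHdhQ7 cells 8.17, 8.05 and 8.19. The lowest mean was that of trichostatin A (8.04, 8.17 and 7.95), 0.20 log2 units below vehicle (SE 0.061), with overlap. The differences from vehicle were 0.01 (SE 0.050) for Group A and 0.03 (SE 0.053) for Group B. Mtf1 was the least variable of the 5 genes, with a residual SD of 0.072 against 0.24 for Slc39a10.

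Mt3, the brain form, was not detected above the lowest values of the table. It read -2.29 to -2.28 in all 48 samples, and its means in the 16 conditions differed by 0.0031 log2 units at most. Because low genes hardly vary in values of this kind, no comparison was made for Mt3.

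**Figure D2:**
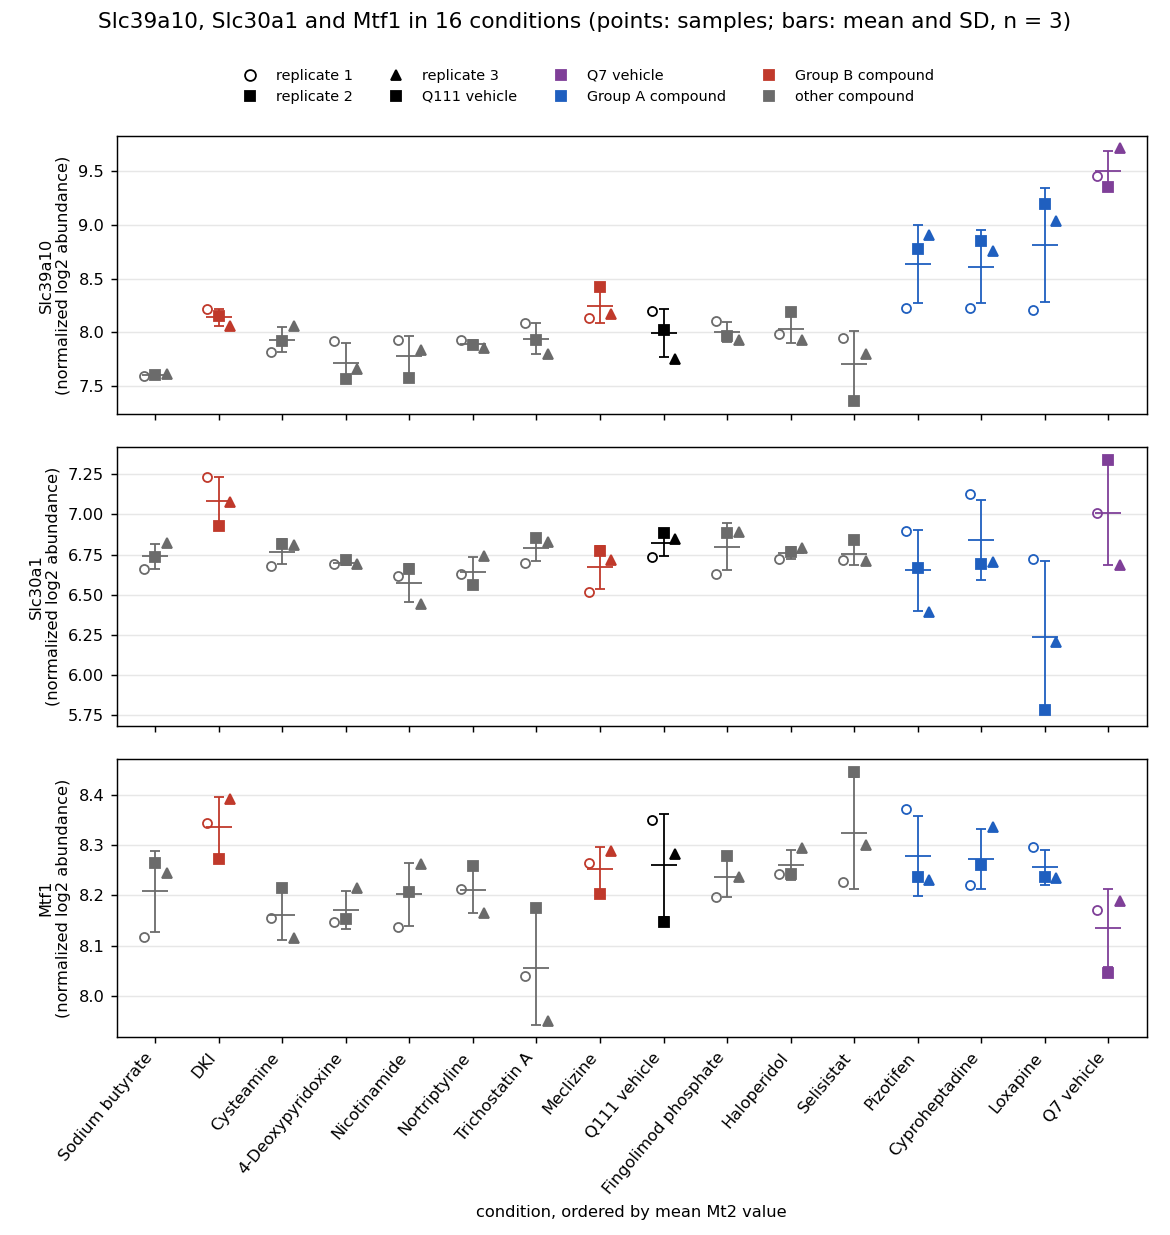
Normalized log2 abundance of Slc39a10, Slc30a1 and Mtf1 in 16 conditions, in the order of mean Mt2. Points are samples, bars are means and SD (n = 3), and each panel has its own y axis. Slc39a10 lies highest in STHdhQ7 vehicle cells (9.35 to 9.71), followed by Group A, and Mtf1 stays between 7.95 and 8.45.

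Across the 16 condition means, Mt1 and Mt2 were alike in pattern (Pearson r 0.959, Spearman rho 0.956), and Slc39a10 ran opposite to Mt2 (r -0.888, rho -0.685) and to Mt1 (r -0.934, rho -0.732). The 15 STHdhQ111 conditions alone gave 0.974 for Mt1 with Mt2 and -0.837 for Slc39a10 with Mt2. Without the 2 conditions farthest from the median, of Mt1 and of Mt2 in turn, these were 0.954 and -0.716. Loxapine and sodium butyrate were left out there, so cyproheptadine and pizotifen of Group A stayed in. The points share 1 table, its normalization and the collection days, and no p is given. Slc30a1 with Mt2 gave r 0.142 and rho -0.05 over 16 conditions, and r 0.48 and rho 0.104 over the 15 of STHdhQ111 cells, where r was 0.164 without the 2 farthest. After the condition means and collection days were removed, Slc30a1 correlated with Slc39a10 at -0.72 and with Mt2 at 0.649 over 48 samples, and Mt1 with Mt2 at 0.86. Slc39a10 correlated with Mt2 at -0.604. Much of this rested on Group A, without which, over 39 samples, the values were -0.258 for Slc30a1 with Slc39a10, 0.268 for Slc30a1 with Mt2, -0.181 for Slc39a10 with Mt2 and 0.804 for Mt1 with Mt2. With selisistat, replicate 2 had both the lowest Mt2 (11.11) and the lowest Slc39a10 (7.36).

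**Figure D3:**
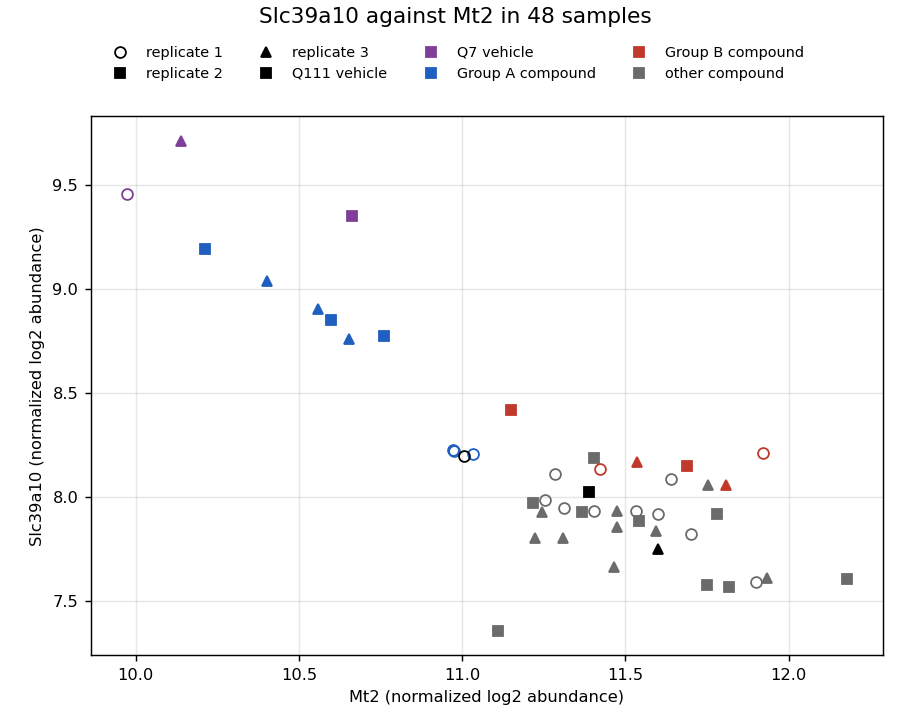
Slc39a10 (y axis) against Mt2 (x axis), both as normalized log2 abundance, with 1 point for each of 48 samples and colour for the group. STHdhQ7 vehicle samples and replicates 2 and 3 of Group A lie at low Mt2 and high Slc39a10, and replicate 1 of Group A lies beside STHdhQ111 vehicle replicate 1 at Mt2 values of 10.97 to 11.03.

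The Group A samples differed by replicate number. This pattern was noticed in the values and is a description. Samples were set against the vehicle sample of the same number, which for replicate 1 of cyproheptadine was of another collection day. The mean of the 3 compounds then differed in Slc39a10 by 0.02 in replicate 1, 0.91 in replicate 2 and 1.15 in replicate 3. For Mt2 the same differences were -0.01, -0.86 and -1.06, and for Mt1 0.17, -0.45 and -0.68. For Slc30a1, replicate 1 lay 0.18 above vehicle and the mean of replicates 2 and 3 lay 0.46 log2 units below it. Against the same vehicle samples, the other compounds had gaps of the same direction for Mt2 and Mt1. Set against the vehicle sample of the same number, Mt2 was higher in replicate 1 than in the mean of replicates 2 and 3 for all 11 compounds outside Group A, by a gap of -0.79 to -0.33 (replicates 2 and 3 minus replicate 1), where the Group A compounds had -1.21 to -0.80. Mt2 read 0.64, -0.02 and -0.29 relative to vehicle with trichostatin A. With DKI, Mt2 read 0.92, 0.30 and 0.21, and replicate 1 of DKI was collected on another day than vehicle replicate 1. For Mt1 the gap was -0.62 to -0.21 outside Group A and -0.84 to -0.66 within it, below 0 in 11 of 11. The vehicle samples themselves had a gap of 0.49 for Mt2 and 0.39 for Mt1, which enters each of these values. The count of 11 of 11 therefore does not show that the other compounds shared the pattern. Taken without vehicle, the gap in Mt2 was -0.30 to 0.16 outside Group A, with both signs, and -0.72 to -0.31 within it. In Mt1 it was -0.23 to 0.18 outside and -0.45 to -0.26 within. For Slc39a10 it was -0.37 to 0.17 outside and 0.58 to 0.91 within, and for Slc30a1 -0.23 to 0.25 and -0.73 to -0.37. By the size of the Group A gap between replicate 1 and the mean of the others, Slc39a10 ranked 14, Mt2 18, Mt1 31 and Slc30a1 39 among 13409 genes, and Mtf1 ranked 6177. The median gap over all genes was 0.087 in size, and that of Slc39a10 was 1.01. Among the genes ranked as high were small structural RNAs, Rpph1 (rank 6, gap 1.31), Rn7s1 (7, 1.28), Rn7s2 (8, 1.28) and Rn7sk (12, 1.11), the interferon inducible genes Gvin1 (4, -1.46), Rsad2 (11, 1.14) and Oasl1 (16, 0.98), and the endothelial marker Pecam1 (9, 1.24). The part of these in the pattern was not tested. Vehicle replicate 1 was the vehicle sample with the lowest Mt2 and the highest Slc39a10. By the labels, replicate 1 of loxapine and pizotifen was collected on day 1 and that of cyproheptadine on day 3, each at a different collection time. Vehicle replicate 1 was of day 1, so replicate 1 of cyproheptadine and of DKI (day 3) was set against vehicle of another day. Vehicle replicate 3, of day 3, read 11.60 for Mt2 and 7.75 for Slc39a10. Cyproheptadine replicate 1 read 10.98 and 8.22, and DKI replicate 1 read 11.92 and 8.21. Without replicate 1 of Group A, the difference from vehicle was -0.83 for Mt2 and 0.96 for Slc39a10. The source of the pattern was not tested.

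**Figure D4:**
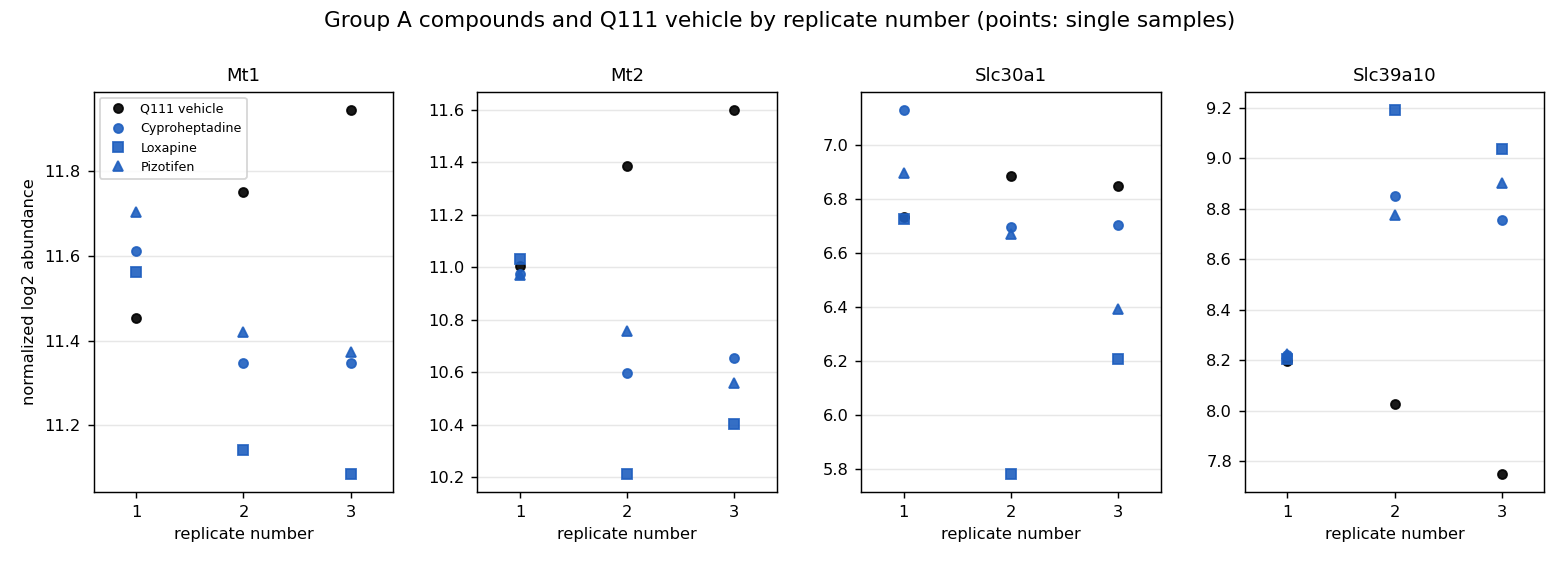
Normalized log2 abundance of Mt1, Mt2, Slc30a1 and Slc39a10 by replicate number for STHdhQ111 vehicle (black) and the 3 Group A compounds (blue), 1 point per sample, each panel with its own y axis. In replicate 1 the Slc39a10 values of the compounds (8.20 to 8.22) meet that of vehicle (8.20), and in replicates 2 and 3 they lie apart.

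The other zinc transporters were tested, since they were not among the chosen genes. The list holds 22 genes of the exporter family Slc30 and the importer family Slc39, of which 15 reached the minimum mean. Genes with an adjusted p under 0.05 (limma, Benjamini-Hochberg over 13409 genes) were called. Between the vehicle cells, 13 of 15 differed, 11 higher and 2 lower in STHdhQ7, against 55.8% of all genes tested. Slc39a14, which carries zinc, iron and manganese, was higher by 0.77 log2 units (SE 0.066, adjusted p = 7.72e-13, limma). Slc39a7, which releases zinc from the endoplasmic reticulum, was higher by 0.61 (SE 0.067). Slc30a6, whose product loads zinc into the secretory pathway, was higher by 0.57 (SE 0.074), and Slc39a6 and Slc39a9 by 0.38 each. Slc39a8, an importer of zinc and manganese, was lower, with a difference of -0.60 (SE 0.087, adjusted p = 1.98e-07, limma), as was Slc30a3 of synaptic vesicles (-0.31, SE 0.087). The call of Slc30a9, also higher in STHdhQ7, was lost in 8 of 15 alternative fits. The median difference of the 15 genes was 0.31, and that of all genes tested 0.004.

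With Group A, 8 of 15 zinc transporters rose and none fell, while 32.8% of all genes tested were called. Slc39a7 rose by 0.39 (SE 0.055, adjusted p = 9.63e-07, limma), Slc39a14 by 0.32 (SE 0.054) and Slc39a6 by 0.30 (SE 0.047). Slc30a5, which loads zinc into the secretory pathway together with Slc30a6, rose by 0.29 (SE 0.048), and Slc39a13, an importer of intracellular vesicles, by 0.26 (SE 0.052). Without replicate 1 of Group A, 6 were called. The call of Slc39a11, which also rose, was lost in 9 of 22 alternative fits. The median difference of the list was 0.12 and that of all genes tested 0.001.

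With Group B, 7 of 15 rose and 1 fell, against 41% of all genes tested. Slc39a11 rose by 0.37 (SE 0.062, adjusted p = 7.26e-06, limma) and Slc30a4, a vesicular exporter, by 0.35 (SE 0.060). Slc39a6 rose by 0.27 (SE 0.050), Slc39a14 by 0.26 (SE 0.058) and Slc39a8 by 0.26 (SE 0.075). The Slc39a8 call was lost without vehicle replicate 3 (adjusted p = 0.0605, limma). Slc39a13 fell by 0.25 (SE 0.055, adjusted p = 0.000418, limma), where with Group A it had risen. The median of the list was 0.13.

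Between the compound groups 11 of 15 differed, 5 higher and 6 lower in Group B, against 41.3% of all genes tested. Slc39a13 differed most, by -0.50 (Group B minus Group A, SE 0.041, adjusted p = 1.35e-12, limma), with no overlap. Slc30a4 was higher in Group B by 0.24 (SE 0.045), Slc39a11 by 0.21 (SE 0.046), Slc39a8 by 0.19 (SE 0.056), Slc39a9 by 0.17 (SE 0.040) and Slc30a9, linked to mitochondrial zinc export, by 0.12 (SE 0.031). On the other side the difference was -0.20 (SE 0.038) for Slc30a5, -0.17 (SE 0.043) for Slc39a7, -0.16 (SE 0.048) for Slc30a6 and -0.12 (SE 0.038) for Slc39a1, an importer of the plasma membrane. The Slc39a1 call was lost without meclizine replicate 3 (adjusted p = 0.0569, limma), and that of Slc39a8 without replicate 1 of Group A (adjusted p = 0.0645, limma). Slc30a7, also lower in Group B, was the least stable, with its call lost in 16 of 25 alternative fits.

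Taken singly, cyproheptadine, DKI and meclizine each changed 8 of 15 (against 35.6%, 42.3% and 26.8% of all genes tested), and loxapine and pizotifen 5 each (against 21.9% and 17.9%). Among the remaining compounds, sodium butyrate changed 7 of 15 zinc transporters, 3 up and 4 down, against 37.5% of all genes tested. Slc30a3 and Slc39a8 rose there by 0.86 (SE 0.087, adjusted p = 1.11e-09, limma) and 0.56 (SE 0.087). The same 2 genes were the ones called with trichostatin A, at 0.35 (SE 0.087) and 0.42 (SE 0.087), against 13.1% of genes tested. With 4-deoxypyridoxine 3 were called, against 20.1%, with nicotinamide 2, against 10.4%, and with cysteamine and nortriptyline 1 each, against 7.83% and 3.83%. The gene in both last cases was Slc39a9, which fell by 0.20 (SE 0.062) and 0.23 (SE 0.062). These genes were named after their values were seen. Leaving out 1 library of the compound took the nicotinamide, cysteamine and nortriptyline counts to 0. With fingolimod phosphate, haloperidol and selisistat 0 of 15 were called by limma, and 0, 0 and 3 had an unadjusted p under 0.05. Of all genes tested, 0.0597%, 0% and 0.515% were called there.

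**Figure D5:**
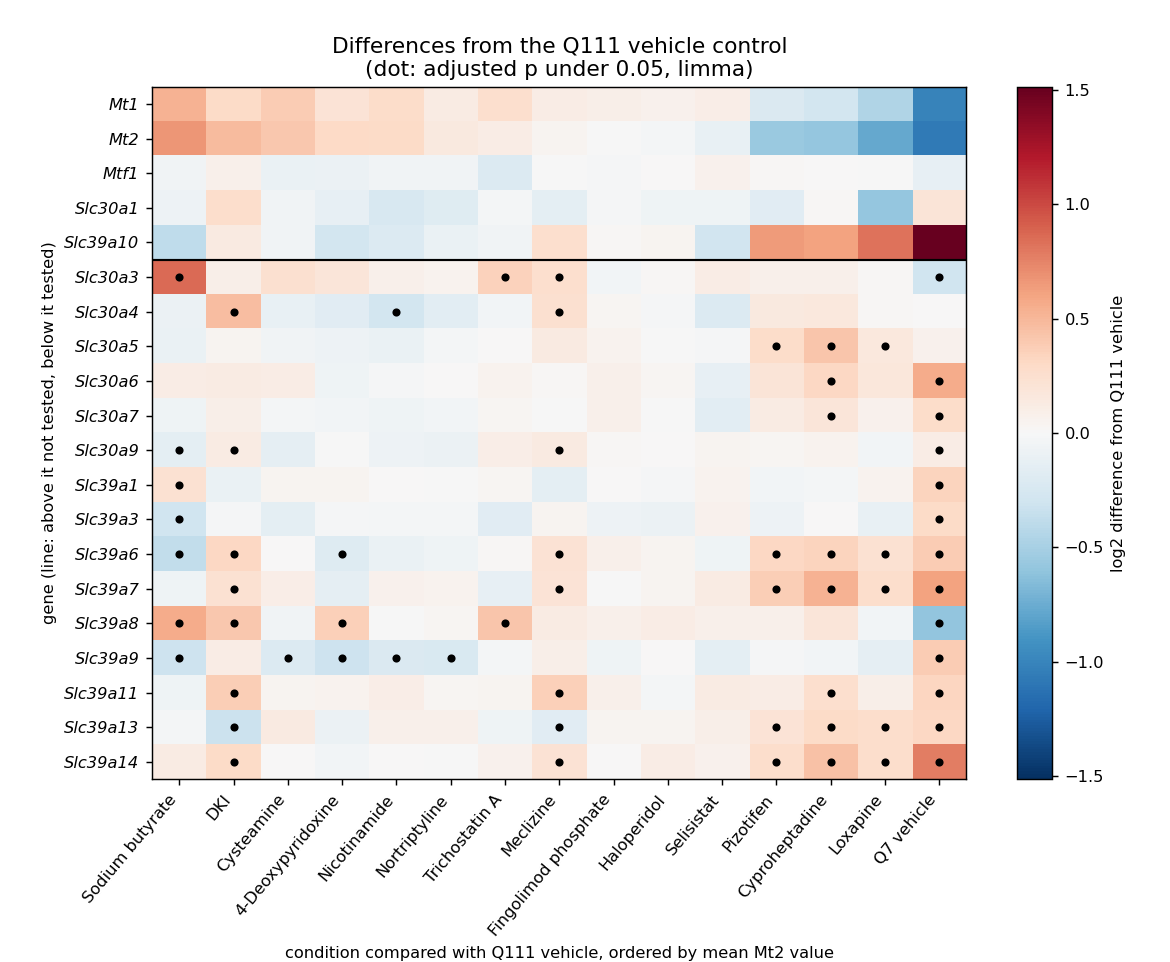
Log2 difference from STHdhQ111 vehicle (colour) for 5 chosen genes above the line and 15 other zinc transporter genes below it (rows) in 15 conditions (columns, ordered by mean Mt2). A dot marks an adjusted p under 0.05 from limma and is drawn for the 15 tested transporters only. The strongest colours are those of Slc39a10, Mt1 and Mt2 in STHdhQ7 vehicle cells (1.51, -1.01 and -1.07).

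Other genes described as dependent on MTF-1 did not follow a single direction. Of the listed genes 6 were tested, and Mt4 lay at -2.18. With Group A, 1 of 6 rose and 1 fell, a share near the 32.8% of all genes called. Ndrg1, a gene of the response to hypoxia and metals, rose by 0.21 (SE 0.051, adjusted p = 0.00142, limma) and Csrp1, a LIM domain protein, fell by 0.32 (SE 0.056, adjusted p = 3.43e-05, limma). With Group B 3 of 6 rose and 2 fell, against 41% of all genes. Ndrg1 rose by 0.69 (SE 0.054) and Gclc, the catalytic subunit of the rate-limiting enzyme of glutathione synthesis, by 0.57 (SE 0.066), while Slc40a1, the iron exporter ferroportin, and Csrp1 fell by 0.48 each (SE 0.11 and 0.060). Between Group B and Group A 5 of 6 were called, against 41.3% of all genes. Gclc and Ndrg1 were higher by 0.51 (SE 0.049) and 0.48 (SE 0.040), and Slc40a1 and Csrp1 were lower, at -0.26 (SE 0.082) and -0.16 (SE 0.045). The medians of the 6 genes were -0.065 with Group A, 0.068 with Group B and 0.13 between them.

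By Pearson correlation over the 16 condition means, the gene most like Mt2 was Mt1 (0.959). It was followed by Coq9 (0.929), A930005H10Rik (0.908), Ptpdc1 (0.902) and Scrn3 (0.899). Most like Mt1 were Mt2, Coq9 (0.943) and Scrn3 (0.934). Slc39a10 was most like Slc15a4 (0.959), Slit3 (0.956) and Grem1 (0.946), Slc30a1 like Cish (0.812), Sec22c (0.802) and Adcy9 (0.790), and Mtf1 like Brwd1 (0.823), Txlna (0.781) and Bms1 (0.773). These are likenesses over 16 points, in which STHdhQ7 vehicle cells stood far from the other conditions. Slc39a10 was not the gene most opposite to Mt2 or Mt1 over these points. Most opposite to Mt2 were Clcn6 (-0.937), Stard4 (-0.920) and Slc41a2 (-0.920), and to Mt1 Dzip1l (-0.947), Lipg (-0.940) and Wnt9a (-0.936). The gene most opposite to Slc39a10 was Scrn3 (-0.964).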

How the data were processed

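RNA-Seq was analysed in 48 samples, 3 in each of 16 conditions, with groups, doses, collection days and times from the labels. Per the labels, a directional kit was used. The authors used Trimmomatic 0.36 for trimming and RSEM for quantification against the transcripts of GRCm38. The table the authors deposited holds normalized abundances with no unit, taken here as log2 values because some are negative. The transformation is not named, and low genes hardly vary, as in a regularized logarithm, which understates their differences. No counts were used, so the depth per sample and its counting error are unknown and the authors' DESeq2 model could not be repeated.

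With limma 3.58.1 in R 4.3.3, condition and collection day were fitted per gene over all 48 samples with a trend on abundance, for 13409 genes with a symbol and a mean of at least 1, with two-sided p-values and Benjamini-Hochberg adjustment within each comparison. SE is that of the fit, in which all conditions share the spread of a gene, and no pseudocount was added. The procedure was tested on simulated data. The 6 chosen genes and the gene lists were fixed with earlier results of these data known. Named genes are the 6 chosen ones, from the zinc transporter lists up to 5 called in each direction by size in 4 comparisons, from other lists up to 2, and the genes most like Mt2 (5) and other chosen genes (3). Slc30a7, Slc30a9 and Slc39a11 are also named where their call was lost in many alternative fits. Genes most opposite to Mt2, Mt1 and Slc39a10 are named as well. The collection day of the labels, which replicate numbers follow apart from replicate 1 of cyproheptadine and DKI, served as the block. Same-numbered samples correlated above 0.1 on average in 9 of the 120 condition pairs. Promoters are from RefSeq (GRCm38.p6, 6 of 6 genes matched) and positions from GENCODE. Protein sequences were not used here. Alternatives were other minimum means, no collection day, the replicate number as a block, collection time, only the compared samples, median of ratios scaling and leaving out samples. Python 3.11.15 with matplotlib 3.10.9 drew the figures.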

Additional observations from a re-analysis of the deposited data

How the results depend on the processing

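In the comparisons of STHdhQ7 vehicle, Group A and Group B with STHdhQ111 vehicle and of Group B with Group A, the differences of Mt1, Mt2, Slc30a1 and Slc39a10 kept their sign under each alternative run. Those of Mtf1 did not for Group A (-0.053 to 0.058) and Group B (-0.029 to 0.082) with 1 library left out. With 1 library left out, the Mt2 difference (Q7 minus Q111) lay between -1.29 and -0.92, the Group A difference between -0.82 and -0.50, the Group B difference between 0.088 and 0.41 and the difference between the groups between 0.84 and 0.99. For Mt1 the ranges were -1.16 to -0.89, -0.46 to -0.19, 0.068 to 0.33 and 0.49 to 0.57. For Slc30a1 they were 0.018 to 0.36, -0.34 to -0.16, 0.0095 to 0.099 and 0.22 to 0.38, and for Slc39a10 1.39 to 1.63, 0.56 to 0.81, 0.063 to 0.31 and -0.60 to -0.43. The calls among zinc transporters ranged from 12 to 13 for Q7, 7 to 8 for Group A, 6 to 10 for Group B and 9 to 11 between the groups. Chosen after seeing the data, as was leaving out replicate 1 of Group A alone, leaving out replicate 1 of every condition gave -0.56 for Mt1 and -0.96 for Mt2 with Group A, 0.023 for Mt1 and 0.052 for Mt2 with Group B, and 1.03 for Slc39a10 with Group A. The cause was not tested. It also ended the calls of Slc39a7 with Group B (adjusted p = 0.128, limma) and of Slc30a6 (adjusted p = 0.0524, limma) and Slc30a9 (adjusted p = 0.163, limma) between the groups. For single compounds, 4 in place of 8 zinc transporters were called for meclizine without its replicate 1, and 2 in place of 0 for selisistat without its replicate 3.

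With the replicate number as a block in place of the collection day, 13 zinc transporters were called for Q7. In both vehicle conditions the replicate number and the collection day coincide. This swap could therefore not move the Mt2 difference (-1.07) and is no check of it. Median of ratios scaling moved no sample by more than 0.0135. The depth is unknown, so the precision rests on 3 samples per condition, and Mt3 lay at the lowest values.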

Other observations

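Of 8 tested genes inducible by metals and oxidants, 4 rose and 1 fell in each of the comparisons of Group A and Group B with vehicle, against 32.8% and 41% of all genes called. Slc7a11, the cystine importer subunit, rose by 1.60 (SE 0.19, adjusted p = 2.93e-08, limma) with Group A, and Srxn1, sulfiredoxin, by 0.34 (SE 0.054). Hspa1b, an Hsp70 chaperone gene, fell there by 0.19 (SE 0.073, adjusted p = 0.0409, limma). With Group B, Slc7a11 rose by 2.80 (SE 0.20, adjusted p = 6.18e-14, limma) and Hmox1, heme oxygenase, by 1.17 (SE 0.099), while Hspa1b fell by 0.62 (SE 0.077). Between Group B and Group A 5 of 8 were called, against 41.3%. Slc7a11 was higher by 1.19 (SE 0.15) and Hmox1 by 0.85 (SE 0.074), and Hspa1b differed by -0.43 (SE 0.057). Hspa1b has a near-identical copy, Hspa1a, so the reads of the 2 genes are uncertain.

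Of 10 copper handling genes, 3 were called with Group A, 4 with Group B and 2 between the groups. These shares (30%, 40% and 20%) lay near or below those of all genes tested (32.8%, 41% and 41.3%) and are no result about the list. Sco2, a copper chaperone of cytochrome c oxidase, rose by 0.57 (SE 0.067, adjusted p = 2.65e-08, limma) and 0.74 (SE 0.071, adjusted p = 9.31e-11, limma). Slc31a1, the copper importer, rose by 0.22 (SE 0.039) with Group A, and Cox17 by 0.24 (SE 0.088) with Group B. Atp7a, the copper exporter, fell by 0.37 in both (SE 0.073 and 0.077). Between Group B and Group A, Sco2 and Sco1 were higher by 0.17 (SE 0.053) and 0.13 (SE 0.043).

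Metallothionein genes are also known targets of glucocorticoids. Of 6 tested glucocorticoid inducible genes, 3 rose with Group A, against 32.8% of all genes called. Klf9 rose by 0.58 (SE 0.069, adjusted p = 4.39e-08, limma) and Dusp1 by 0.47 (SE 0.084). With Group B 1 rose and 2 fell, against 41%. Klf9 rose by 0.74 (SE 0.073, adjusted p = 2.02e-10, limma) and Per1 and Fkbp5 fell by 0.27 (SE 0.049) and 0.16 (SE 0.061). Between Group B and Group A 5 of 6 were called, against 41.3%. Sgk1 and Dusp1 differed by -0.61 (SE 0.059) and -0.53 (SE 0.067), and Klf9 and Tsc22d3 by 0.17 (SE 0.055) and 0.12 (SE 0.048).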
